A study of Mus musculus with 12 samples.

Results

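Transcripts of 10 genes of the interleukin-1 family, Il1a, Il1b, Il1rn, Il1r1, Il1r2, Il1rap, Il1rl1, Il18, Il18r1 and Il18rap, were measured in mouse airway eosinophils that carried or lacked the surface receptor TREM-1. The genes were chosen by symbol, and each of the 10 was found once among the 39666 genes of the count table. Their numeric gene IDs in that table are 16175, 16176, 16181, 16177, 16178, 16180, 17082, 16173, 16182 and 16174 in the same order. All mice were wild-type C57BL/6 animals of 8 to 12 weeks. They received 20 µg ovalbumin with 4 mg alum on day 0 and again on day 7, inhaled a 1% ovalbumin aerosol for 40 minutes a day from day 16 to day 18, and were sampled on day 19. No library came from mice without allergic inflammation. Lung lavage fluid was pooled over mice, and eosinophils were taken from it as CD45+ CD11b+ Siglec-F+ cells of high side scatter with low to intermediate CD11c and Ly6G. Cells without TREM-1 (TREM-1-) and with it (TREM-1+) were sorted from each of 6 lavage pools, for 12 total RNA libraries and 6 within-lavage comparisons.

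Interleukin-1 alpha and beta are ligands that bind the receptor encoded by Il1r1, which then recruits the accessory chain encoded by Il1rap and signals through MYD88 to NF-kB. The family carries its own brakes: Il1rn encodes an antagonist that occupies the receptor without signalling, and Il1r2 encodes a decoy receptor without the signalling domain. Il1rl1 encodes ST2, the receptor for interleukin-33, through which eosinophils, mast cells and type 2 lymphoid cells are activated in allergic airways, and it uses the same accessory chain. Interleukin-18 has a receptor of its own, made of the chains encoded by Il18r1 and Il18rap.

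Total counts ran from 8626701, in the TREM-1+ library of lavage 4, to 21234053. Levels are given as CPM, counts scaled to the size of the library with trimmed mean of M values (TMM) factors. Trem1, the sorted antigen, rose with the sort in 6 of 6 lavages, from 18.4 to 42.1 CPM in TREM-1- up to 73.5 to 130.7 CPM in TREM-1+ libraries. The eosinophil genes Siglecf (707 to 962 CPM), Ccr3 (660 to 1132 CPM) and Epx (25.5 to 55.4 CPM) were present in every library. Of 8 eosinophil markers 4 were nonetheless called lower in TREM-1+ (Ccr3, Siglecf, Il5ra and Cebpe) and 2 higher (Prg2 and Alox15). Within a fraction the libraries of lavages 1 and 2 lay closest together, with a chi-square per gene of 5.26 and 6.88 against 20.6 to 191.1 for all other library pairs, and whether these are independent pools is uncertain. Results are therefore also given for lavages 1 and 2, for lavages 3 to 6, and without lavages 3 and 4. Whether each pool had its own mice is not in the labels. The p-values cover the spread between pools, which may be technical.

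The 250 bases before the annotated start of the genes that differed between the fractions, Il1a, Il1b and Il1rl1, are shown with those of the antagonist gene Il1rn, so that the ligand genes can be compared with each other and with their antagonist. They are RefSeq sequences of build GRCm38.p6, whereas the submitters' processing notes name GRCm39. Capitals mark matches on either strand to a TATA box (TATAAA), to the C/EBP motif (TTGCNNAA), to the AP-1 motif (TGANTCA), to the motif of GATA factors (AGATAA), to the PU.1 motif (GAGGAA), or to the NF-kB motif. The motifs did not overlap in these 4 windows, and an AP-1 match reads as a match on both strands.
Il1a, chr2:129309973-129310222, minus strand: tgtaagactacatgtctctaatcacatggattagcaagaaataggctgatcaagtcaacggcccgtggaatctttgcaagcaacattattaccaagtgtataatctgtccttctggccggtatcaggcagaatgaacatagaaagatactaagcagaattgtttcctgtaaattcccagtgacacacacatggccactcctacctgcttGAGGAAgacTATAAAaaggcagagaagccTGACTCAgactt
Il1b, chr2:129371140-129371389, minus strand: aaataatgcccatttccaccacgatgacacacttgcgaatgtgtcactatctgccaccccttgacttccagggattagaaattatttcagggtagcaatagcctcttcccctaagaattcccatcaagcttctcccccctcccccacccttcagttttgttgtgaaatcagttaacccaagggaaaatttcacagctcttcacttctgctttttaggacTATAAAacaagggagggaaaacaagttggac
Il1rn, first of 3 listed starts, chr2:24336610-24336859, plus strand: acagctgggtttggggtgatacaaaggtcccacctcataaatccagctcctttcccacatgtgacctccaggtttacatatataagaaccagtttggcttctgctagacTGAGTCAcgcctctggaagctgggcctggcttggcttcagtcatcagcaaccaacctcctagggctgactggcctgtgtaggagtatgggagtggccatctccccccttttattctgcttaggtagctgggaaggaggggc
Il1rl1, first of 2 listed starts, chr1:40429320-40429569, plus strand: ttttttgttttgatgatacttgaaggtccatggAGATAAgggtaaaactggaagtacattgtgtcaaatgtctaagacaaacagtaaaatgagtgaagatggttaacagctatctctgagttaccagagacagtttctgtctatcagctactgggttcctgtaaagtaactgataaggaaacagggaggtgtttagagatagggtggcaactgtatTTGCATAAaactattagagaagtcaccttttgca
Il1a and Il1b, which lie next to each other among the protein-coding genes of chromosome 2, both have a TATA box just before the start, at positions -32 to -27 and -31 to -26 (the base before the start is -1). Il1a also matches the AP-1 and PU.1 motifs. The Il1rn window has an AP-1 match at -141 to -135, and the Il1rl1 window a GATA match at -217 to -212 and a C/EBP match at -34 to -27. The windows of the other listed Il1rn starts, not shown, have no match to any of these motifs. That of the other Il1rl1 start has a GATA match but no C/EBP match. Which start these cells use was not tested. No window shown matches the NF-kB motif. Of the 32851 starts listed, 12.4% have a TATAAA match in a window of this length, 9.56% a C/EBP, 6.75% an AP-1, 9.99% a GATA, 23.3% a PU.1 and 7.25% an NF-kB match, so single matches are common and none shows that a factor binds.

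In TREM-1+ eosinophils the ligand genes Il1b and Il1a were higher than in their TREM-1- counterparts, Il1b 2.28-fold and Il1a 1.35-fold, and the interleukin-33 receptor gene Il1rl1 was lower, at 0.817 of the TREM-1- level. The antagonist gene Il1rn, whose transcript was the most abundant of the family per kilobase, had almost the same level in both fractions. The decoy receptor gene Il1r2, the receptor gene Il1r1, the accessory chain gene Il1rap and the 3 genes of the interleukin-18 system did not pass the test. All 10 genes passed the filter on low counts. By the edgeR quasi-likelihood test with the lavage as a block and Benjamini-Hochberg adjustment over 18302 genes, 2 of the 10 were called higher and 1 lower at an adjusted p below 0.05. Of all genes tested, 9.82% were called (3.1% higher and 6.72% lower), and the median fitted log2 change was 0.04 for the 10 genes and 0.00 for all genes. Scaling by library totals alone moved the median of all genes to 0.13 and the calls over all genes from 568 higher and 1229 lower to 1880 higher and 376 lower. Under that scaling the same 3 genes of the family were called, at 1.32 for Il1b, 0.56 for Il1a and -0.16 for Il1rl1. In bulk libraries, fewer cells of a type and less RNA per cell cannot be told apart.

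**Figure D1:**
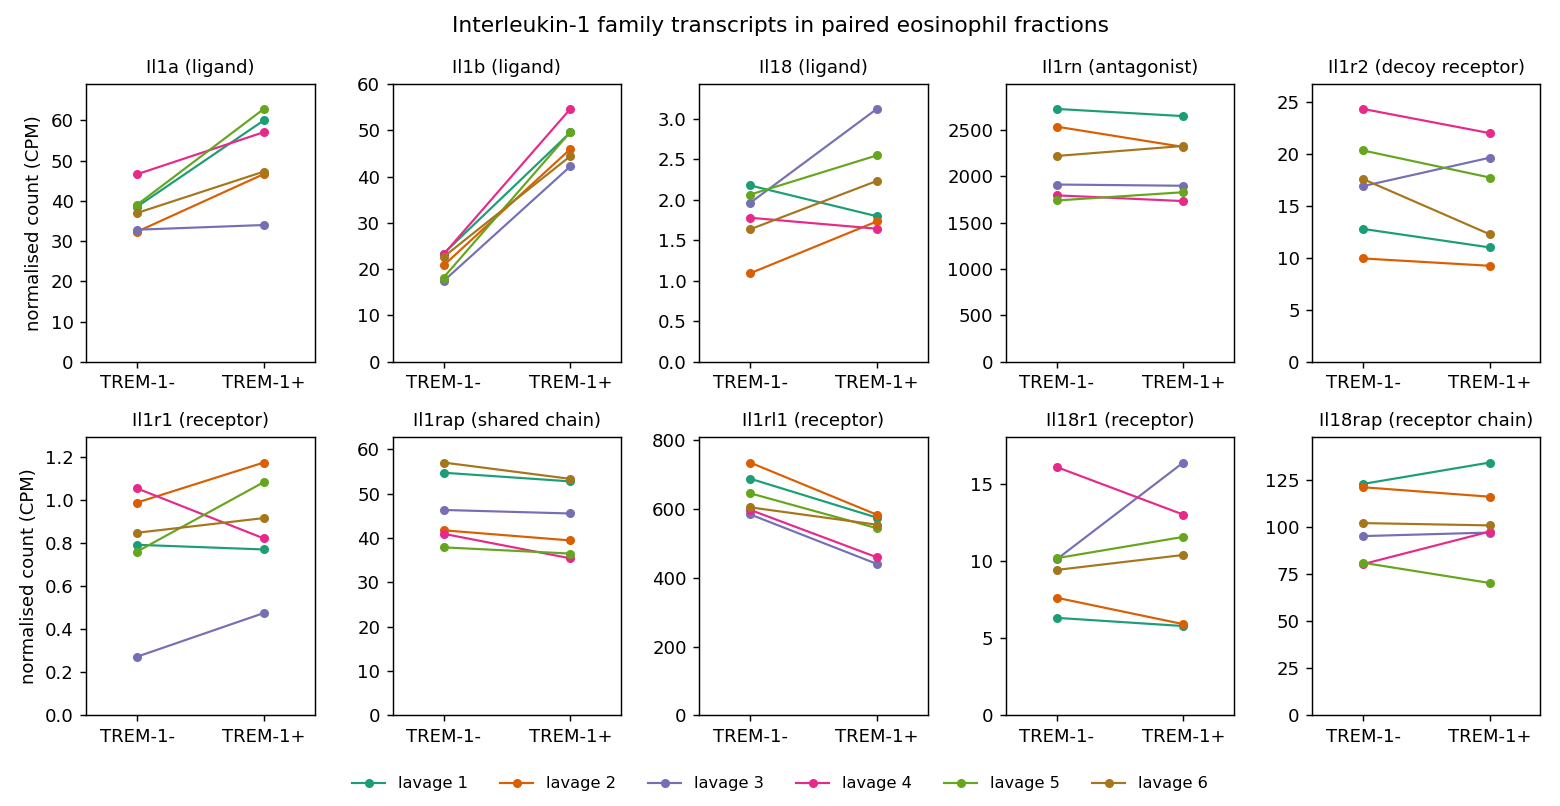
Normalised counts (CPM, vertical axes from 0) of the 10 genes in the TREM-1- and TREM-1+ library of each lavage; each line joins the fractions of 1 lavage. Il1b rises in all 6 lavages, from 17.4 to 23.4 CPM up to 42.2 to 54.6 CPM, Il1rl1 falls in all 6, and the lines of Il1rn stay close to level.

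Il1b encodes the secreted pro-inflammatory ligand, made as a precursor that is cleaved before release. Its level was 17.4 CPM at the lowest, 21.7 at the median and 23.4 at the highest in TREM-1- libraries, and 42.2, 47.7 and 54.6 CPM in TREM-1+ libraries. Every TREM-1+ library exceeded every TREM-1- library, a separation without overlap that 0.951% of all genes tested showed. The mean rose from 20.9 ± 2.60 to 47.7 ± 4.45 CPM (SD, n = 6), a log2 fold change of 1.19 ± 0.07 (SE, edgeR adjusted p = 1.97e-13). The fold within a lavage lay between 1.96 in lavage 6 and 2.72 in lavage 5. Il1b was called under each of the 15 alternatives, with log2 fold changes of 1.13 in lavages 1 and 2, 1.23 in lavages 3 to 6 and 1.16 without lavages 3 and 4. The level of Il1b also varied little between lavages, with a coefficient of variation of 9.32% in TREM-1+ and 12.4% in TREM-1- libraries.

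Neutrophils and monocytes also transcribe Il1b, and transcripts typical of neutrophils moved with the fraction. Of 12 neutrophil markers 8 were tested, 7 of them were called higher and 1, Retnlg, lower. The summed level of the list was 1545 to 2297 CPM in TREM-1- against 1332 to 2225 CPM in TREM-1+ libraries and was higher in TREM-1+ in 1 of 6 lavages. Retnlg, at a mean of 1603 CPM in TREM-1- against 1244 CPM in TREM-1+ libraries, makes up most of that sum, and the 7 other tested markers all rose. S100a8, a calprotectin subunit gene, was at 0.847 to 2.23 CPM in TREM-1- against 6.35 to 11.9 CPM in TREM-1+ libraries, and Ly6g at 1.12 to 5.20 and 3.95 to 8.41 CPM. The mean of S100a9, the other calprotectin subunit gene, rose from 37.3 to 97.5 CPM, and those of the granule genes Ngp and Ltf rose from 25.4 to 46.8 and from 9.06 to 17.1 CPM. The G-CSF receptor gene Csf3r rose from 5.86 to 11.2 CPM, and the chemokine receptor gene Cxcr2 from 330 to 382 CPM. Elane had no count in any library, Mpo at most 2 counts, and Camp and Mmp8 at most 10 and 9. In the monocyte and macrophage list 4 of 9 tested genes were called higher and 2 lower, with summed levels of 1569 to 2269 and 1384 to 2128 CPM. Among them Fn1 ranged from 3.46 to 155 CPM over the TREM-1+ libraries, in which Il1b ranged from 42.2 to 54.6 CPM. The part of such cells in the Il1b result was not tested.

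Il1a encodes the other agonist ligand, which also acts from the cell surface or when cells break up. The level was 32.3 CPM at the lowest, 37.8 at the median and 46.6 at the highest in TREM-1- libraries, against 34.0, 52.2 and 62.9 CPM in TREM-1+ libraries, so the fractions overlapped. Within each lavage Il1a was nonetheless higher in the TREM-1+ library, from 1.04-fold in lavage 3 to 1.61-fold in lavage 5. The mean rose from 37.7 ± 5.20 to 51.3 ± 10.8 CPM (SD, n = 6), a log2 fold change of 0.43 ± 0.07 (SE, edgeR adjusted p = 4.41e-05). The change was 0.61 in lavages 1 and 2 (adjusted p = 3.92e-11), 0.35 in lavages 3 to 6 (adjusted p = 0.0118) and 0.55 without lavages 3 and 4 (edgeR adjusted p = 5.69e-07). Whether lavages 1 and 2 are independent pools is uncertain. The small p of their fit may therefore rest on technical spread and is not stronger evidence. Without the lavage block the call was lost (0.44, edgeR adjusted p = 0.255). Per kilobase of transcript Il1a stood above Il1b in all 6 TREM-1- libraries and below it in all 6 TREM-1+ libraries. Of 6 tested alveolar macrophage markers 3 (Car4, Pparg and Ctsk) were called higher and 1, Ear1, lower. Marco, Fabp1, Fabp4 and Krt79 had at most 5, 1, 8 and 32 counts in a library and were not tested. The summed level of this list, most of it Car4, Chil3 and Ear1, was higher in TREM-1+ in 5 of 6 lavages. Chil3 did not pass the edgeR test (adjusted p = 0.0877). Of 7 tested dendritic cell markers 1, Itgae, was called higher and 0 lower. The summed level of that list, most of it Itgae, was 65.3 to 80.0 CPM in TREM-1- against 96.7 to 121.8 CPM in TREM-1+ libraries. The part of such cells in the Il1a result was not tested.

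Il18, the ligand gene of the interleukin-18 receptor, was close to the limit of the depth, with 16 to 46 counts a library. Its level was 1.09 to 2.18 CPM in TREM-1- against 1.64 to 3.12 CPM in TREM-1+ libraries, with a median of 1.87 and 2.01 CPM. It was higher in 4 of 6 lavages, with a log2 fold change of 0.29 ± 0.27 (SE, edgeR adjusted p = 0.657). The approximate 95% interval of -0.25 to 0.82 leaves a change of either sign undetected at this depth.

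Il1rn, the antagonist gene, had 16868 to 55071 counts a library, so its comparison is among the most precise here. Its level was 1738 CPM at the lowest, 2064 at the median and 2725 at the highest in TREM-1- libraries, and 1731, 2106 and 2647 CPM in TREM-1+ libraries. The fitted log2 change was -0.02 ± 0.03 (SE, edgeR adjusted p = 0.857), with an approximate 95% interval of -0.07 to 0.04. Lavages differed more than fractions, with no test made: lavages 1 and 2 averaged 2629 CPM in TREM-1- against 2481 CPM in TREM-1+ libraries, against 1915 and 1945 CPM in lavages 3 to 6. With library totals alone the change was 0.11 (edgeR adjusted p = 0.0539), close to the shift of all genes under that scaling. The counts are per gene and do not separate the secreted from the intracellular forms that start at different exons.

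The balance of ligand to antagonist was compared within each library, where the scaling factor cancels. Per kilobase of the longest transcript, Il1rn exceeded Il1b 54.8 ± 8.64-fold in TREM-1- and 23.9 ± 4.74-fold in TREM-1+ libraries (SD, n = 6). The ranges, 41.1 to 64.7 and 16.8 to 28.4, did not overlap, and the antagonist transcript stayed the more abundant in all 12 libraries. With the median length of the coding transcripts the values were 103.1 and 44.9, since Il1rn has short and long forms. The log2 ratio of Il1b to Il1rn was higher in TREM-1+ libraries in 6 of 6 lavages, by 1.21 ± 0.17 on average (SD, n = 6). Flipping the signs of the 6 differences in every way (exact permutation test, two-sided) gave p = 0.0312, the smallest that 64 sign patterns allow, and 0.0625 after adjustment over the 4 ratios compared, which did not pass. The rise of Il1b was known when this ratio was chosen.

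**Figure D2:**
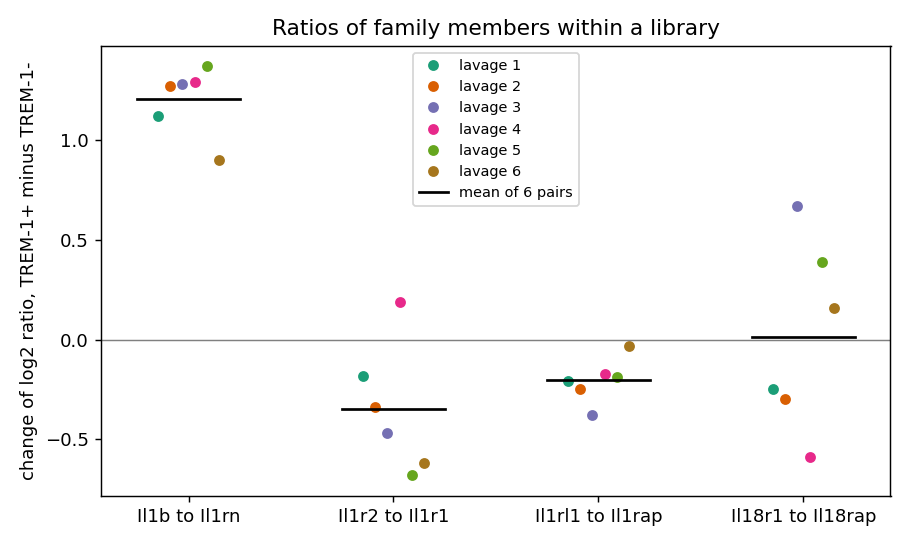
Change of the log2 ratio of each gene pair between the fractions (vertical axis, TREM-1+ minus TREM-1-), with a point for each lavage and a line at the mean of 6 pairs. The Il1b to Il1rn ratio is higher by 0.90 to 1.37 in every lavage, Il1rl1 to Il1rap is lower in every lavage, and Il18r1 to Il18rap scatters on both sides of 0.

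Il1r2, which encodes the decoy receptor, was at 9.93 CPM at the lowest, 17.2 at the median and 24.3 at the highest in TREM-1- libraries, and at 9.22, 14.97 and 22.0 CPM in TREM-1+ libraries. It was lower in the TREM-1+ library of 5 of 6 lavages and higher in lavage 3, with a log2 fold change of -0.16 ± 0.10 (SE, edgeR adjusted p = 0.435). As with Il1rn, lavages differed more than fractions, but in the other direction: lavages 1 and 2 averaged 11.3 CPM and lavages 3 to 6 averaged 19.8 CPM in TREM-1- libraries. Il1r1, the signalling receptor gene, had only 5 to 21 counts a library, which is 0.272 to 1.05 CPM in TREM-1- against 0.475 to 1.17 CPM in TREM-1+ libraries. Its fitted log2 change was 0.19 ± 0.42 (SE, edgeR adjusted p = 0.876), with an interval of -0.63 to 1.01 that holds changes near 2-fold. Per kilobase the decoy exceeded the signalling receptor in every library, from 32.2-fold to 254-fold with the longest transcript and from 55.1-fold to 434-fold with the median coding length, on the low counts of Il1r1. The log2 ratio of Il1r2 to Il1r1 was lower in TREM-1+ in 5 of 6 lavages (mean -0.35 ± 0.32, SD, n = 6, exact sign-flip permutation p = 0.0938, 0.125 after adjustment).

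Il1rap, the accessory chain gene used by the interleukin-1 and interleukin-33 receptors, was slightly lower in TREM-1+ in 6 of 6 lavages. Levels were 37.9, 44.0 and 57.0 CPM (lowest, median and highest) in TREM-1- and 35.4, 42.5 and 53.3 CPM in TREM-1+ libraries. The log2 fold change of -0.08 ± 0.06 (SE) did not pass the edgeR test (adjusted p = 0.488), and with library totals alone it was 0.04. Of all genes tested, 13.4% had the same sign in all 6 lavages, and in the family 4 of 10 did: Il1a, Il1b, Il1rap and Il1rl1.

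Il1rl1, the interleukin-33 receptor gene, was lower in the TREM-1+ library of every lavage, and the fractions did not overlap. Such a separation was shown by 0.951% of all genes tested. It was at 584 CPM at the lowest, 625 at the median and 735 at the highest in TREM-1- libraries, and at 440.3, 549 and 583 CPM in TREM-1+ libraries. The highest TREM-1+ library and the lowest TREM-1- library lay only about 1 CPM apart, and without the TMM factors the fractions overlapped. The mean fell from 643 ± 59.1 to 526 ± 60.9 CPM (SD, n = 6), a log2 fold change of -0.29 ± 0.03 (SE, edgeR adjusted p = 2.48e-07). The difference was smallest in lavage 6, at -0.13, and largest in lavage 3, at -0.41. It was -0.28 in lavages 1 and 2, -0.29 in lavages 3 to 6 and -0.24 without lavages 3 and 4, and all 3 were called, but without the lavage block the call was lost (-0.29, edgeR adjusted p = 0.364). The eosinophil marker Ccr3, an eotaxin receptor gene, fell by a like amount, with a log2 fold change of -0.27 (edgeR adjusted p = 3.75e-07), and Siglecf (-0.14), Il5ra (-0.15) and Cebpe (-0.11) were called lower as well, whereas Prg2 (0.34) and Alox15 (0.19) were called higher. Mast cells and basophils also carry ST2. Of the 8 genes of their list, Kit was called higher (0.30, edgeR adjusted p = 0.000818), and Ms4a2 (means of 2.52 CPM in TREM-1- against 2.01 CPM in TREM-1+, adjusted p = 0.851) and Cpa3 (0.673 against 0.756 CPM, adjusted p = 0.878) did not pass the test. Mcpt8 and Fcer1a had at most 18 and 17 counts in a library and were not tested, and Mcpt4, Tpsb2 and Prss34 had no count in any library. Summed levels of the list were 30.0 to 57.2 CPM in TREM-1- against 28.8 to 64.3 CPM in TREM-1+ libraries, higher in TREM-1+ in 5 of 6 lavages. Kit, at a mean of 38.1 CPM in TREM-1- against 46.6 CPM in TREM-1+ libraries, makes up most of that sum. Type 2 lymphoid cells carry ST2 as well. In the T and innate lymphoid cell list 7 of 10 tested genes were called higher and 0 lower by edgeR. The summed level of that list was higher in TREM-1+ in 6 of 6 lavages. The part of these marker changes in the Il1rl1 result was not tested. Counts per gene do not separate membrane ST2 from its soluble form.

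The ratio of Il1rl1 to its partner chain Il1rap was lower in TREM-1+ in 6 of 6 lavages. The mean change of the log2 ratio was -0.21 ± 0.12 (SD, n = 6), from -0.03 in lavage 6 to -0.38 in lavage 3. The exact sign-flip permutation test gave p = 0.0312, the smallest that 64 sign patterns allow, and 0.0625 after adjustment over the 4 ratios, which did not pass. This ratio too was chosen with earlier results of these data known. Il33, the gene of the ST2 ligand, had no count in the 6 TREM-1- libraries, which allows up to 0.148 to 0.198 CPM (3 counts a library, counting error only). It had 14 counts in one TREM-1+ library and 3 in another, and it did not pass the filter on low counts.

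The interleukin-18 receptor chains had different levels, and neither passed the test. Il18rap, the accessory chain gene, was at 80.3, 98.7 and 122.9 CPM (lowest, median and highest) in TREM-1- and at 70.3, 99.3 and 134.3 CPM in TREM-1+ libraries. It was higher in 3 of 6 lavages, with a log2 fold change of 0.02 ± 0.05 (SE, edgeR adjusted p = 0.866) and an interval of -0.07 to 0.12. Il18r1, the ligand-binding chain gene, was at 6.33, 9.78 and 16.1 CPM in TREM-1- and at 5.80, 11.0 and 16.4 CPM in TREM-1+ libraries. Its fitted log2 change was 0.05 ± 0.13 (SE, edgeR adjusted p = 0.903), and single lavages ran from -0.36 in lavage 2 to 0.69 in lavage 3. T cells and innate lymphoid cells carry this receptor as well, and 7 of 10 tested genes of their marker list were called higher and 0 lower by edgeR, with summed levels of 18.4 to 83.1 CPM in TREM-1- against 20.4 to 130.1 CPM in TREM-1+ libraries. In the NK cell list 0 of 3 tested genes were called. Its summed level was 0.0520 to 16.7 CPM in TREM-1- against 0.821 to 26.6 CPM in TREM-1+ libraries. That sum was higher in TREM-1+ in 6 of 6 lavages. The part of such cells in the values of Il18r1 and Il18rap was not tested. The log2 ratio of Il18r1 to Il18rap changed by 0.01 ± 0.47 (SD, n = 6, exact sign-flip permutation p = 1, adjusted p = 1).

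**Figure D3:**
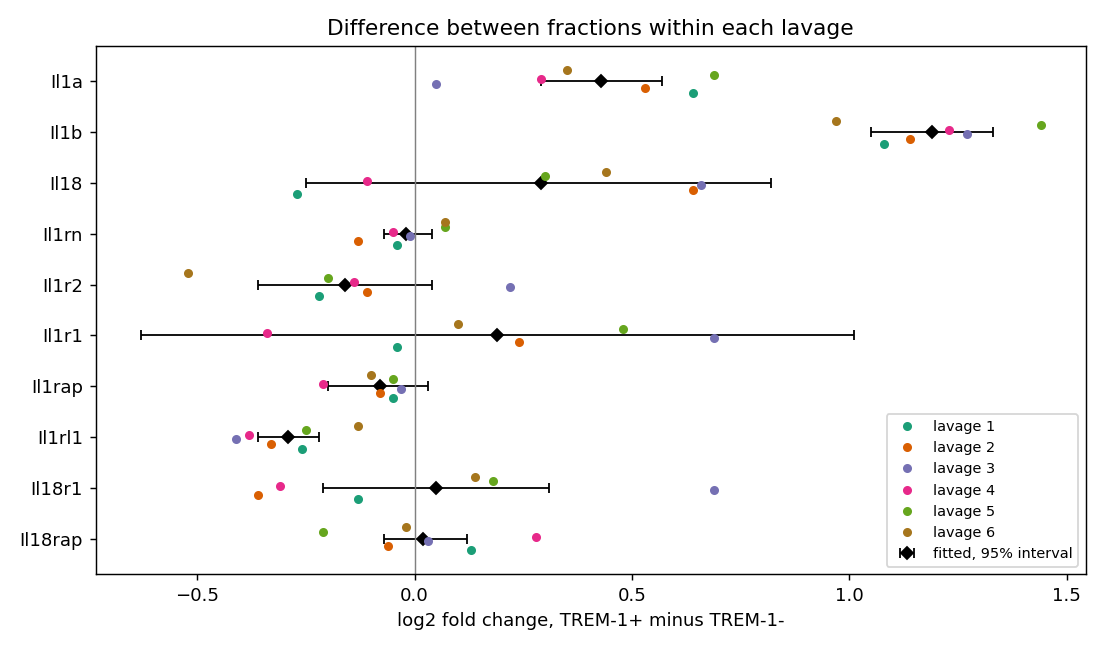
Log2 fold change between the fractions (horizontal axis, TREM-1+ minus TREM-1-) for each gene; coloured points are single lavages and black diamonds the fitted value with its approximate 95% interval. Il1b (1.19) and Il1a (0.43) lie to the right of 0 and Il1rl1 (-0.29) to the left, while the wide intervals of Il1r1 and Il18 go with their low counts.

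The chromosomal neighbours of Il1rl1 did not pass the test. In RefSeq the protein-coding genes Il1r2, Il1r1, Il1rl2, Il1rl1, Il18r1 and Il18rap follow each other on chromosome 1, and of these 6 only Il1rl1 was called in the edgeR fit. Il1rl2, the receptor gene for interleukin-36, was at 23.7 ± 3.01 CPM in TREM-1- against 23.2 ± 3.18 CPM in TREM-1+ libraries (SD, n = 6, edgeR adjusted p = 0.888). On chromosome 2 the neighbours Il1a and Il1b both rose, by amounts whose intervals, 0.29 to 0.57 and 1.05 to 1.33, did not overlap.

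Levels were ranked per kilobase of the longest annotated transcript. In TREM-1- libraries the order was Il1rn (843 ± 160 CPM per kilobase, SD, n = 6), Il1rl1 (121 ± 11.2), Il18rap (20.6 ± 3.82), Il1a (19.1 ± 2.63), Il1b (15.4 ± 1.92), Il1r2 (11.9 ± 3.63), Il1rap (10.3 ± 1.73), Il18r1 (2.40 ± 0.812), Il18 (2.02 ± 0.442) and Il1r1 (0.135 ± 0.0474). In TREM-1+ libraries Il1b stood in the third place (35.2 ± 3.28), before Il1a (26.0 ± 5.46) and Il18rap (21.0 ± 4.37), and the other genes kept their places. The ranges over libraries did not overlap between Il1rn and Il1rl1, between Il1rl1 and the next gene, between Il1rap and Il18r1, or between Il18 and Il1r1, in either fraction. All other neighbours in the order overlapped. With the median length of coding transcripts, chosen after the data were seen, Il1r2 moved to the third place in TREM-1- libraries, before Il18rap, Il1a and Il1b, and the order in TREM-1+ libraries was the same.

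**Figure D4:**
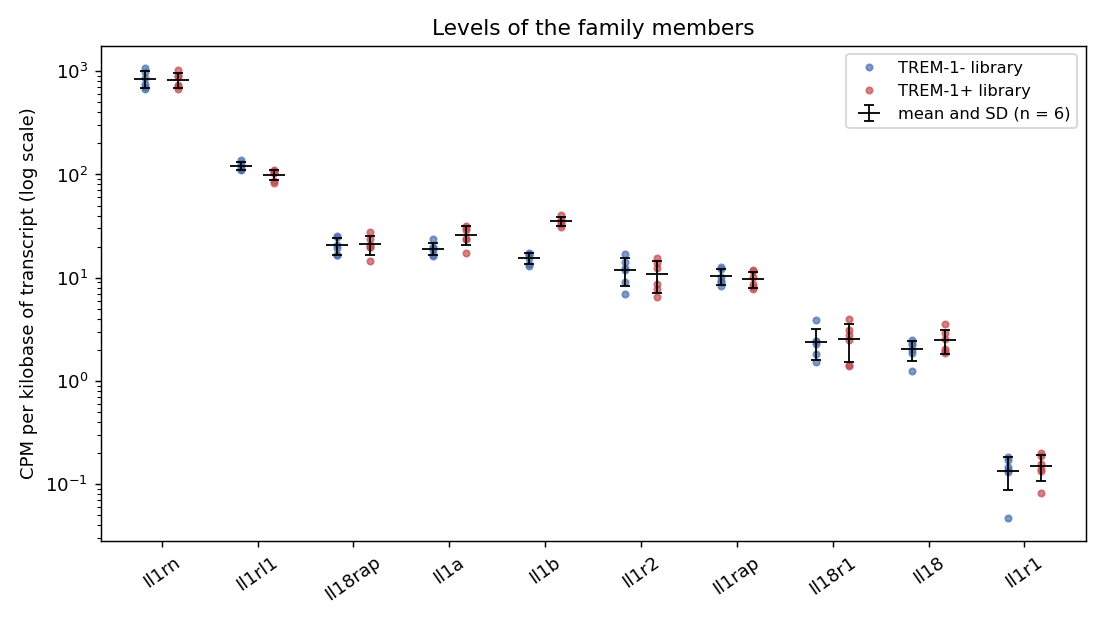
Level per kilobase of the longest transcript (log axis) in each library, blue for TREM-1- and red for TREM-1+, with mean and SD (n = 6). Il1rn and Il1rl1 stand apart at the top and Il1r1 at the bottom, and Il1b is the gene whose fractions separate most.

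The genes most like each changed gene over the 12 libraries were listed as a description, among genes with a mean of at least 5 CPM. For Il1b these were Trem1 itself (Pearson r = 0.95), the LIF receptor gene Lifr (0.92), Synj2 (0.92), Atad2 (0.91) and Pag1 (0.89). For Il1rl1 they were Polr2e (0.97), Arhgap30 (0.96), Gcnt2 (0.96), Ripor2 (0.95) and Ehd1 (0.94). For Il1a they were Rpusd2 (0.88), 2510002D24Rik (0.86), Papolg (0.85), Dnajb14 (0.84) and Npm3 (0.84). The 12 points share 6 lavages and the split by TREM-1, so that any gene with a steady difference between the fractions scores high.

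Genes that act around the family were taken from 4 lists, in which 63 of 71 genes were tested, 3 were called higher and 11 lower, beside 3.1% higher and 6.72% lower over all genes tested. With library totals alone 8 were higher and 4 lower, so the balance of directions depends on the scaling. Without the lavage block 1 was called, the early response gene Ier3 (-0.66, edgeR adjusted p = 0.0108). Among other family members, 1 of 6 tested genes was called lower and 0 higher, with a median log2 fold change of -0.11 (at an unadjusted p below 0.05, 2 lower and 0 higher; DESeq2 and limma-voom each called 1 lower and 0 higher). The called gene was Il18bp, which encodes a soluble binder of interleukin-18, at 52.1 ± 10.7 CPM in TREM-1- against 45.8 ± 10.1 CPM in TREM-1+ libraries (SD, n = 6, log2 fold change -0.19 ± 0.06, SE, edgeR adjusted p = 0.0289). That call was lost without lavage 1 (adjusted p = 0.0895), lavage 5 (0.112) or lavage 6 (0.119), in lavages 1 and 2 (0.416) and 3 to 6 (0.103), and with library totals alone (0.613).

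Of 11 tested genes of maturation and release of the ligands, 4 were lower and 1 higher, with a median log2 fold change of -0.14. Over all genes tested, 6.72% were lower and 3.1% higher, with a median of 0.0. At an unadjusted p below 0.05, 6 genes of the list were lower and 1 higher by edgeR. DESeq2 called 4 lower and 1 higher, and limma-voom 3 lower and 1 higher. With library totals alone, edgeR called 0 lower and 3 higher. Gsdmd, which encodes the pore-forming gasdermin D, fell from 75.0 ± 9.60 to 60.6 ± 6.85 CPM (SD, n = 6, log2 fold change -0.31 ± 0.05, SE, edgeR adjusted p = 2.86e-05). Casp8, a caspase gene, fell by 0.28, Ninj1, which encodes a protein of membrane rupture, fell by 0.22, and the sensor gene Nlrp1b fell by 0.14 on the log2 scale. Txnip was higher by 0.10. With library totals alone Gsdmd (-0.18, adjusted p = 0.0508), Casp8 (-0.16, adjusted p = 0.109), Ninj1 (-0.09, adjusted p = 0.318) and Nlrp1b (-0.02, adjusted p = 0.888) were not called by edgeR. In lavages 3 to 6 the edgeR adjusted p was 0.189 for Ninj1, 0.204 for Nlrp1b and 0.127 for Txnip, and without lavages 3 and 4 it was 0.114, 0.125 and 0.11. Leaving out lavage 2 ended the call of Ninj1 (0.0634) and, as did leaving out lavage 1, 4 or 5 (0.0503 to 0.0839), that of Txnip, and leaving out any lavage but the second ended that of Nlrp1b (0.0575 to 0.202). Nlrp1b was also not called by limma-voom (0.0618) or without the filter on low counts (0.0766), and in lavages 1 and 2 neither Nlrp1b (0.263) nor Txnip (0.105) was. Casp1, which encodes the caspase that cleaves pro-interleukin-1 beta, was at 16.7 ± 4.76 CPM in TREM-1- against 14.5 ± 3.60 CPM in TREM-1+ libraries (SD, n = 6, edgeR adjusted p = 0.24), and Nlrp3, the inflammasome sensor gene, had at most 19 counts in a library and was not tested.

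Downstream of the receptors, 3 of 20 tested genes were called lower and 0 higher, with a median of -0.02, beside 9.82% of all genes called in either direction (edgeR; at an unadjusted p below 0.05, 4 lower and 2 higher; DESeq2 and limma-voom each called 3 lower and 0 higher). Myd88, the adaptor gene of the interleukin-1 and Toll-like receptors, fell from 102.1 ± 13.0 to 83.2 ± 7.69 CPM (SD, n = 6, log2 fold change -0.29 ± 0.05, SE, edgeR adjusted p = 2.58e-05). The kinase gene Irak2 fell by 0.26 and the IkB kinase gene Ikbkb fell by 0.19 on the log2 scale. With library totals alone Irak2 (-0.13, adjusted p = 0.0775) and Ikbkb (-0.06, adjusted p = 0.558) were not called by edgeR, nor was Ikbkb in lavages 3 to 6 (adjusted p = 0.088). Irak1, Irak4 and Traf6, which encode the next steps of the pathway, had log2 fold changes of -0.05, 0.03 and -0.02.

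Feedback and target genes went both ways: 2 of 26 tested were higher and 3 lower, with a median of -0.03. Over all genes tested, 3.1% were higher and 6.72% lower. At an unadjusted p below 0.05, 2 genes of the list were higher and 6 lower by edgeR. DESeq2 and limma-voom each called 2 higher and 3 lower. The chemokine gene Ccl3 rose from 8.41 ± 3.78 to 12.1 ± 4.98 CPM (SD, n = 6, log2 fold change 0.56 ± 0.13, SE, edgeR adjusted p = 0.00361), and Zc3h12a, which encodes an RNase that degrades cytokine transcripts, rose by 0.24. Ier3 fell by 0.65, the cytokine gene Tnf fell by 0.50, and Rel, which encodes an NF-kB subunit, fell by 0.27, all on the log2 scale. In lavages 3 to 6 Ccl3 (0.51, adjusted p = 0.159) and Tnf (-0.40, adjusted p = 0.141) were not called by edgeR. Zc3h12a was not called in lavages 1 and 2 (0.12, adjusted p = 0.444), with lavage 4 left out (0.21, adjusted p = 0.0513) or with lavages 3 and 4 both left out (0.18, adjusted p = 0.133). The feedback inhibitor genes Nfkbia (-0.12, adjusted p = 0.123) and Tnfaip3 (-0.05, adjusted p = 0.48) did not pass the edgeR test.

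**Figure D5:**
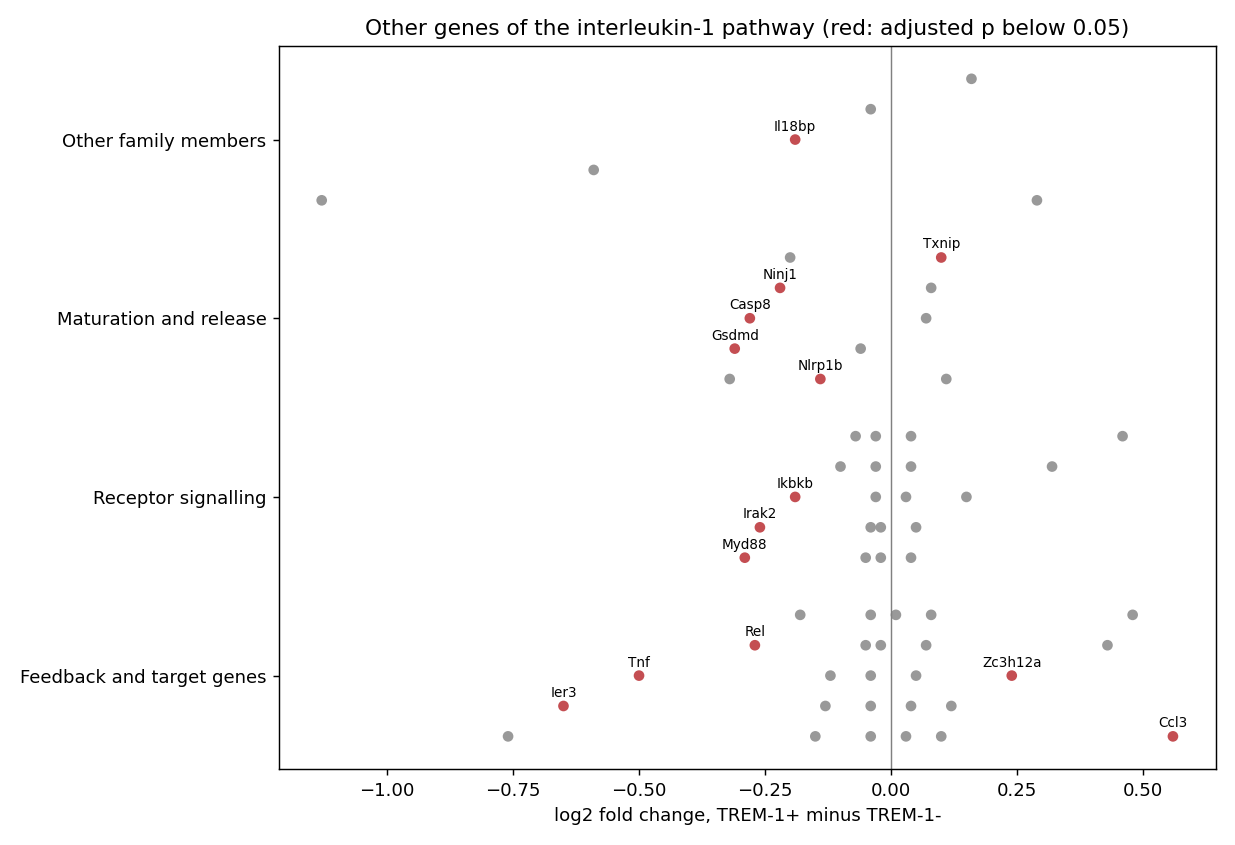
Log2 fold change (horizontal axis, TREM-1+ minus TREM-1-) of the tested genes of the 4 lists; red points, named, had an edgeR adjusted p below 0.05 and grey points did not. Of 63 genes 11 red points lie left of 0 and 3 right of it, and most grey points lie close to 0.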

How the data were processed

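The authors deposited a table of estimated counts for 39666 genes in 12 libraries, as whole numbers (rounding changed 0 values), and a table of log2 CPM for 17934 genes. Per the submitters' processing notes, kallisto 0.45.0, R 4.3.0, edgeR 3.42.4 and build GRCm39 were used. Recomputed log2 CPM (TMM, prior count 1) matched the deposited log2 values to within 5e-09. The annotation and the use of strand are not given in the sources used here. A gene and an overlapping antisense gene may share counts. Of the per-sample columns 0 were unused.

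TREM-1+ was set against TREM-1- with the lavage as a block in edgeR 4.0.16 under R 4.3.3, by the robust quasi-likelihood F test after TMM scaling (filterByExpr, min.count 10, min.total.count 15). SEs come from the F statistic, intervals are 1.96 SE, and an adjusted p below 0.05 was a call. DESeq2 1.42.0 and limma 3.58.1 (voom) were alternatives. In simulated counts, 172 of 200 genes changed 2-fold were recovered, with 9 false calls among 17979 genes. The changed genes were drawn above a floor of mean count, so the recovery does not cover low counts or smaller changes. The pairing is stated in the design text: the 2 libraries of a lavage deviated together from their group means (r = 0.13 to 0.50), and 5 of 6 TREM-1+ libraries were closest to their own partner. Transcript lengths came from GENCODE vM21, and all 10 genes matched RefSeq (GRCm38.p6).

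The members, lists, ratios and rules were chosen with earlier results of these data known. Named genes are the 10 members, up to 4 called genes of smallest p per list and direction, and the 5 most correlated genes of the 3 members with the smallest p. Casp1, Nlrp3, Il33, Il1rl2, Irak1, Irak4, Traf6, Nfkbia and Tnfaip3 were named for their roles.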

Additional observations from a re-analysis of the deposited data

How the results depend on the processing

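Without the replicate block on lavage, 1 of the 10 family genes was called, Il1b (log2 fold change 1.19, edgeR adjusted p = 4.99e-06), while Il1a (0.44, adjusted p = 0.255) and Il1rl1 (-0.29, adjusted p = 0.364) kept their size and lost the call. Over all genes, the calls then fell from 1797 to 83 (27 higher and 56 lower), and in the pathway lists to 1 lower and 0 higher (8 and 2 at an unadjusted p below 0.05, by edgeR). The 14 other alternatives each called 3 family genes. Lavages 3 to 6 alone gave 1168 calls over all genes (366 higher and 802 lower) and, in the pathway lists, 6 lower and 1 higher. Leaving out lavages 3 and 4 gave 347 higher over all genes and 1 higher in the lists. Library totals alone gave 1880 higher and 376 lower over all genes, and 8 higher and 4 lower in the lists. Leaving out each lavage in turn gave 1 to 3 higher calls in the lists, the lowest without lavage 4. The 4 ratios moved by less than 1 SD under every alternative run; with 5 pairs or fewer they are values with no test, since 5 pairs cannot give a p below 0.0625. Depth limits Il1r1 and Il18 most.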
